A study of Mus musculus with 9 samples.

Results

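The nuclear genes of the mitochondrial respiratory chain were examined in mouse muscle cells measured on 9 single-colour whole-genome arrays, 3 in each of 3 groups. The members were all non-control spots whose gene name in the array files begins with Nduf, Uqcr, Atp5 or Cox4 to Cox8, or is Sdha, Sdhb, Sdhc or Sdhd. This gave 83 genes, read by 116 probes, of 27598 gene names and 41174 probes on the array. Split by complex after these names, 38 were counted in complex I, 4 in complex II, 7 in complex III, 18 in complex IV and 16 in complex V. Ndufa4 was thus counted in complex I by its name alone, whichever complex holds its product. The rule used names alone and no measured value. It took in 79 subunits and 2 assembly factors, Ndufaf1 and Ndufaf2 (named Ndufa12l in the files). It also took in 2 genes that are no subunits under their current names, Emc8 (Cox4nb in the files) and Dmac2l (Atp5s in the files). The counts by complex include the assembly factors in complex I, Emc8 in complex IV and Dmac2l in complex V. The files' Atp5f1 is given here as Atp5pb and their Uqcr as Uqcr11. The subunits encoded by mitochondrial DNA, and chain genes that the files list under other names, lie outside the rule.

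The iPax3 and iPax7 groups held cells re-isolated from the tibialis anterior muscle of mice whose strain is labelled NSG/NSGmdx4cv, aged 3 months. iPax3 and iPax7 are mouse pluripotent stem cell lines in which Pax3 or Pax7, transcription factors of the muscle lineage, can be switched on to make myogenic progenitors. As the study is known, such progenitors were engrafted into the muscle and taken out again. The labels call them mononucleated cells and give no sort gate. NSG mice lack mature lymphocytes and natural killer cells and keep their myeloid cells, and mdx4cv is a dystrophin-deficient allele. The satellite group held resident muscle stem cells from the tibialis anterior of Pax7-ZsGreen mice, a reporter strain, also aged 3 months. The labels describe 3 independent experiments with 3 mice per line, in which 1500 cells were collected for lysis, and the RNA was amplified before labelling with Cy3.

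The respiratory chain moves electrons from food-derived carriers to oxygen in the inner mitochondrial membrane and uses the energy to make ATP. Complex I takes electrons from NADH and complex II takes them from succinate. Complex III passes them to cytochrome c, complex IV passes them on to oxygen, and complex V is the ATP synthase driven by the resulting proton gradient. All but complex II also contain subunits made inside the mitochondrion. Quiescent satellite cells are known for a small mitochondrial content, which grows when they are activated.

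Several members were read by more than 1 probe, and the probes of a gene did not always give the same reading. The first 30 bases of each probe of 4 such genes are printed here because their separate readings are compared further on. Positions are those of the array annotation (build mm8), and a span longer than a probe crosses introns. Capitals mark runs of 9 or more bases that a stretch shares with another printed stretch of the same gene. Ndufs6 is an accessory subunit of complex I near its iron-sulphur arm. Ndufa12 is an accessory subunit of complex I, Atp5g2 encodes the membrane ring subunit c of ATP synthase, and Ndufab1 encodes the mitochondrial acyl carrier protein, which is also part of complex I.
Ndufs6 probe 1 (chr13:73786344-73786403, minus strand): GCCATTGATTTGATAGCACAACAGcctgtg
Ndufs6 probe 2 (chr13:73786350-73786409, minus strand): AACTTTGCCATTGATTTGATAGCACAACAG
Ndufs6 probe 3 (chr13:73786372-73793429, minus strand): cgtcagaaagaggtgaatgagAACTTTGCC
Ndufa12 probe 1 (chr10:93629774-93633088, plus strand): ctggtgggagaagacaaataTGGAAATAAA
Ndufa12 probe 2 (chr10:93629794-93633108, plus strand): TGGAAATAAAtactacgaagacaacaagca
Ndufa12 probe 3 (chr10:93650616-93650675, plus strand): aagaagattcatgaatgggttccacctttg
Atp5g2 probe 1 (chr15:102491047-102491106, minus strand): cagaggccatggggctcttttgcctaatgg
Atp5g2 probe 2 (chr15:102493189-102493248, minus strand): acttcacttatccctagccgcagtttccaa
Ndufab1 probe 1 (chr7:121878166-121878225, minus strand): agtctctgaattcacagtaccattctttca
Ndufab1 probe 2 (chr7:121879301-121879360, minus strand): tgtaaatggctactttaaatcccagggtag
Ndufab1 probe 4 (chr7:121882765-121882824, minus strand): ttcctgatatagatgcagagaagttaatgt
A further probe of Ndufab1, numbered 3, was well above background on 1 of 9 arrays and was not used.

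Some members also had promoter motifs in common, which the rule did not use. RefSeq windows on GRCm38.p6, from 250 bases before to 50 bases after a gene's start, were matched by symbol to 68 of the 83 members and gave 73 windows. The letters CCGGAAG, the core bound by ETS factors such as GABPA, stood on either strand in 17 of the 73 windows (23.3%) and in 8.86% of all 32851 windows. GCATGCG, the core of NRF1 sites, stood in 11 (15.1%) against 3.58%, and ATGGCGG, a core of YY1 sites, in 11 (15.1%) against 4.05%. At least 1 of the 3 stood in 43.8% of member windows and 14.8% of all windows, with no matching for base composition. GABPA, NRF1 and YY1 are known activators of respiratory chain promoters, but a match is a run of letters and no binding was measured here. Of the 2 windows of Atp5j, which encodes a stalk subunit of ATP synthase, 1 held none of the 3 and the other held all 3, as 1.37% of member windows and 0.0578% of all windows did. The window of Atp5l, a membrane subunit of ATP synthase described below, held the ETS and NRF1 letters. The Atp5j window with motifs and that of Atp5l are printed with the motifs in capitals; the run CGCATGCG holds the NRF1 letters on both strands.
Atp5j (chr16:84834927-84835226, minus strand): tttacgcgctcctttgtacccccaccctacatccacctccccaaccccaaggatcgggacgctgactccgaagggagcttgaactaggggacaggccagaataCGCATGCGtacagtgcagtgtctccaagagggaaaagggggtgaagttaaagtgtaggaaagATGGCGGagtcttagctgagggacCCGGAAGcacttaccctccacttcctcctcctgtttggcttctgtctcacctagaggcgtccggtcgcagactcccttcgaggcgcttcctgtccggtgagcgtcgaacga
Atp5l (chr9:44920693-44920992, minus strand): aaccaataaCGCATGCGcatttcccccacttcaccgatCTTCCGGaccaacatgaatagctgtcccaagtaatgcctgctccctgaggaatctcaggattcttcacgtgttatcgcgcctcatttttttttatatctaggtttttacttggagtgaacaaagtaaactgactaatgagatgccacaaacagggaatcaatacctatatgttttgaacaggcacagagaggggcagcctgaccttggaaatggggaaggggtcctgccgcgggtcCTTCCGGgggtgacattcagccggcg

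Levels below are log2 of the processed signal relative to the 75th percentile of the same array, so that a level of 0 equals that percentile and a difference of 1 is a 2-fold difference. Testing required a probe whose signal stood well above background on 3 or more arrays, a condition met by 80 of the 83 members and by 22701 genes in all. Of the 80, 56 met it on all 9 arrays. Where a gene had several probes passing, 1 was used for the gene. Levels of different genes come from different probes and are not set against each other. In sorted bulk samples, fewer cells of a type and less RNA per cell cannot be told apart.

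The arrays differed among themselves in ways that follow the groups only in part. Between 56.5% and 79.7% of all probes were well above background on an array, and any pair of arrays correlated at r between 0.542 and 0.774. The 6 re-isolated samples lay on slides 1 and 2 and the 3 satellite samples on slides 3, 4 and 5, scanned on other days. Slide, scan day and mouse strain therefore cannot be told apart from the difference between re-isolated and satellite cells. Satellite cell markers, 11 of 12 tested, were well above background on all 3 satellite arrays, with a summed level of 7.19 to 7.97 on the log2 scale against 5.19 to 6.27 in re-isolated samples, where 10 or 11 of the 11 were above background. All 11 were lower in both lines together than in satellite cells, and 2 of them were called lower. Fibroblast and fibro-adipogenic markers summed to 8.78 to 10.2 in re-isolated samples and 4.95 to 6.44 in satellite cells, and 8 of the 10 were called higher in re-isolated cells. Muscle fibre markers, which come with abundant mitochondria, had sums of 3.44 to 5.21 in re-isolated samples and 4.23 to 5.27 in satellite cells, and 0 of 11 were called. Endothelial sums were 3.87 to 7.49 in re-isolated samples and 4.73 to 6.14 in satellite cells, and leukocyte sums 2.37 to 5.97 and 0.86 to 1.99. Pericyte sums were 5.67 to 6.87 and 5.91 to 6.57, with 1 of 8 genes, Myh11, called lower in both lines together (-2.95, adjusted p = 0.0481). Adipocyte sums were 0.84 to 2.34 and 0.73 to 4.07, with 0 of 5 called. The 2 erythroid genes tested summed to -0.93 to 4.35 in iPax3, 4.39 to 5.49 in iPax7 and -0.56 to 0.69 in satellite samples, with 0 called. On each array 9 to 11 of 11 fibre, 9 or 10 of 10 fibroblast, 3 to 8 of 8 endothelial and 7 or 8 of 8 leukocyte markers were well above background. The part of the cell types in the results below was not tested.

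No respiratory chain gene passed the test in any comparison. With limma and Benjamini-Hochberg adjustment over all genes at 0.05, 0 of 80 members were called between iPax3 and satellite cells, where 0.432% of all genes were (0.361% higher and 0.0705% lower). Between iPax7 and satellite cells 0 were called, against 0.533% of all genes (0.436% higher and 0.0969% lower), and between both lines together and satellite cells 0, against 1.04% (0.802% higher and 0.238% lower). Between iPax7 and iPax3 cells 0 members and 0% of all genes were called. At an unadjusted p under 0.05 there were 2 members higher and 5 lower in iPax3 cells than in satellite cells, where 6.8% and 5.64% of all genes were, together 8.75% of members against 12.4% of all genes. For iPax7 cells these numbers were 5 higher and 4 lower, against 6.83% and 5.58%, together 11.2% against 12.4%. For both lines they were 5 higher and 5 lower, against 8.07% and 7.31%, together 12.5% against 15.4%. Between the lines they were 3 higher and 1 lower in iPax7 cells, against 1.74% and 2.36%, together 5% against 4.1%.

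As a group the chain genes lay close to all genes in direction as well. Of the 80 members, 37 were higher in iPax3 than in satellite cells (46.2%, against 45.3% of all genes) and 41 in iPax7 cells (51.2%, against 45.9%). Their median difference was -0.20 in iPax3 cells and 0.03 in iPax7 cells, where the medians of all genes were -0.19 and -0.15. With both lines together 37 were higher (46.2% against 45.6%), with a median of -0.14 against -0.16. The median in iPax7 relative to iPax3 cells was 0.15, against 0.07 over all genes, with 46 members higher (57.5% against 53.3%). Both re-isolated groups share the satellite arrays as their reference, so their differences are not independent of each other.

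The 95% intervals show how much could have been seen. For both lines against satellite cells, the interval of a member reached a median of 2.28 log2 units to each side, and 70 of 80 intervals held 0. None of the 80 lay wholly within a 2-fold difference, 7 lay within a 4-fold difference and 29 within an 8-fold difference either way. For a single line the median reach was 2.64 log2 units, and 5 members in iPax3 and 2 in iPax7 cells lay within a 4-fold difference. A change of 2-fold in a member was thus not detectable with 3 arrays per group.

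**Figure D1:**
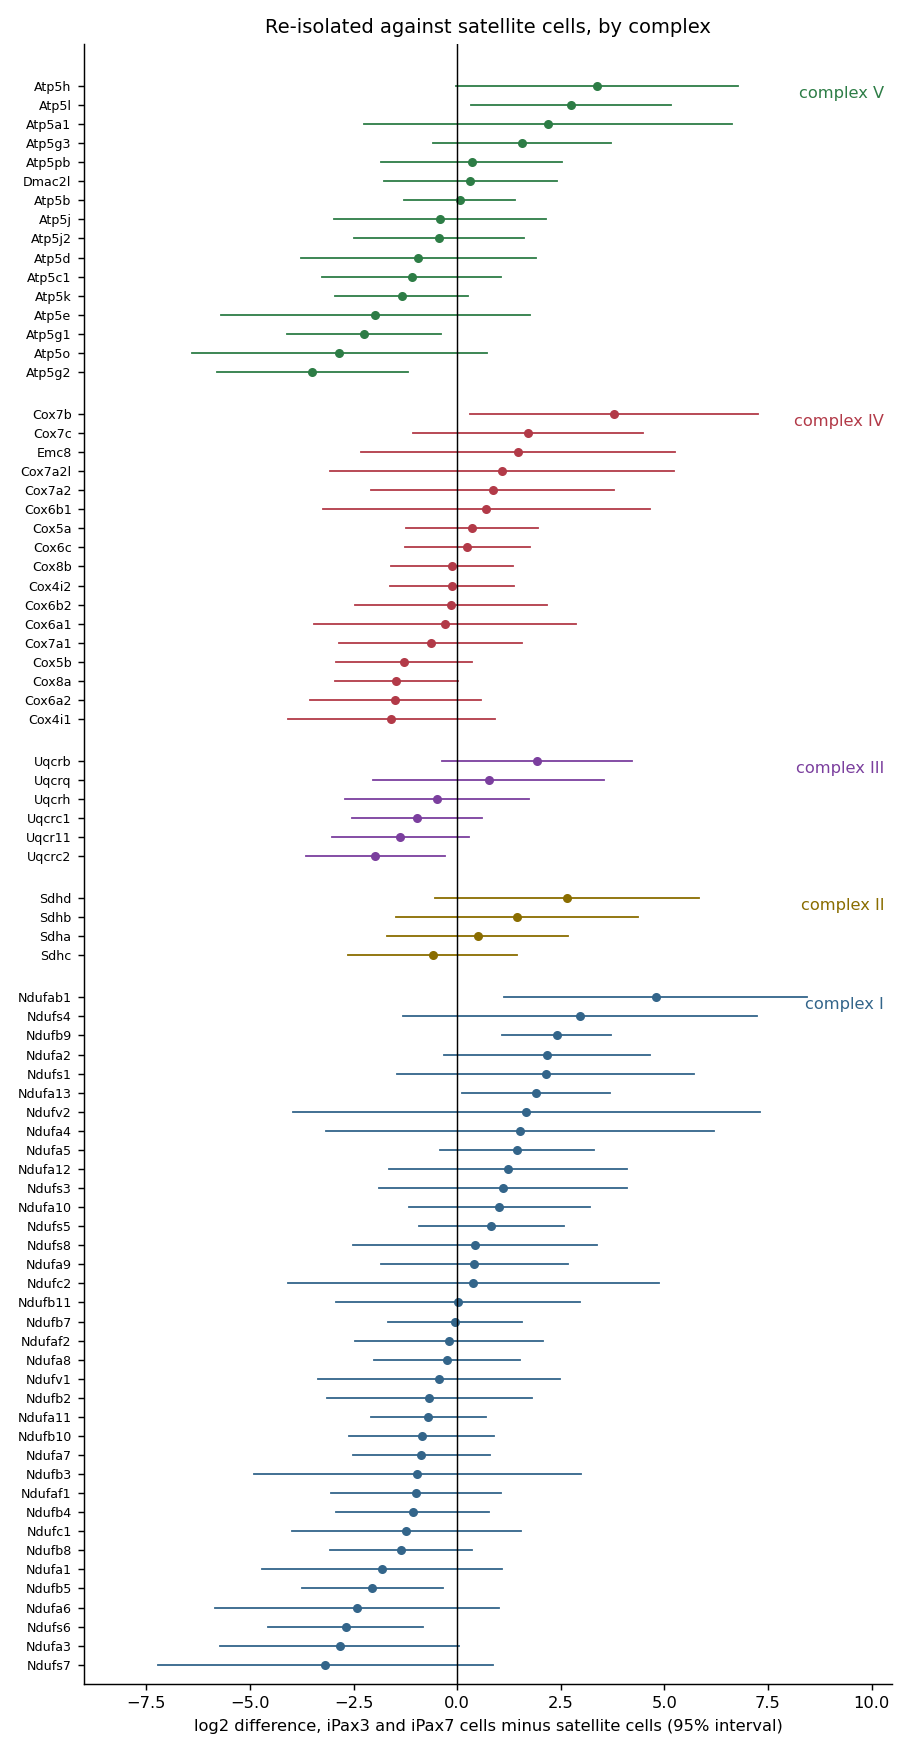
Log2 difference of 79 of the 80 tested members between re-isolated cells (6 arrays, both lines) and satellite cells (3 arrays), ordered by size within each complex; points are fitted differences and lines are 95% intervals. Of the intervals of all 80, 70 hold 0, and members of every complex lie on both sides of it. The value of Atp5g3 is not exact, since it was not well above background on any satellite array.

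In complex I, the 2 assembly factors included, the members divided almost evenly. In the 2 lines together 17 of 37 were higher than in satellite cells, with a median difference of -0.19. Ndufb9, an accessory subunit of the membrane arm, had the smallest unadjusted p of the members in that comparison. Its level was 2.54, 1.55 and 2.86 on the iPax3 arrays, 2.58, 3.03 and 3.24 on the iPax7 arrays and 0.74, 0.05 and -0.09 on the satellite arrays. All 6 re-isolated arrays lay above all 3 satellite arrays. The difference was 2.40 ± 0.58 (SE), or 5.27-fold, with an unadjusted p of 0.00239 and an adjusted p of 0.105 by limma. It ranged from 2.02 to 2.65 over the 20 alternative analyses, with adjusted p between 0.0575 and 0.443.

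Ndufs6 and Ndufb5 stood on the other side. Ndufs6 had levels of -1.19, 0.59 and -0.58 on the iPax3 arrays, 1.37, 0.31 and 0.83 on the iPax7 arrays and 1.39, 2.58 and 4.75 on the satellite arrays. The groups did not overlap, but the highest iPax7 array and the lowest satellite array differed only in the second decimal. The difference was -2.69 ± 0.83, with an adjusted p of 0.188. Ndufb5, another subunit of the membrane arm, lay between -3.47 and -2.41 on the 6 re-isolated arrays and at 0.87, -1.92 and -1.89 on the satellite arrays. Its difference was -2.04 ± 0.76 (adjusted p = 0.255).

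Larger differences in complex I came with a wider spread in the genes that follow. Ndufab1 had levels of -0.64, -1.45 and 1.84 on the iPax3 arrays, 2.61, 0.09 and 1.71 on the iPax7 arrays and 0.71, -6.25 and -6.73 on the satellite arrays. The satellite 1 array lay among the re-isolated arrays, and the other 2 satellite arrays were not well above background. The difference was 4.79 ± 1.62 (adjusted p = 0.222). Without satellite replicate 1 the comparison is with arrays that only bound the level, and Ndufab1 was then at least 76-fold higher in both lines together, at least 44.4-fold in iPax3 and at least 130-fold in iPax7 cells. The adjusted p of that fit was 0.0145, 0.0405 and 0.0192. Ndufs7, a core iron-sulphur subunit, had levels of -3.01, -1.42 and 3.37 on the iPax3 arrays, 3.75, -0.60 and -2.89 on the iPax7 arrays and 0.99, 2.81 and 5.34 on the satellite arrays. These groups overlapped, and the difference was -3.18 ± 1.79 (adjusted p = 0.425). Ndufa3, an accessory subunit, had the largest difference of any member in iPax3 cells, at -4.14 (adjusted p = 0.309), and again the groups overlapped.

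Other core subunits of complex I, which carry the flavin and the iron-sulphur clusters, had differences on both sides of 0. Ndufv2 spanned -7.24 to 2.75 in iPax3 cells alone, and its difference of 1.67 had a 95% interval from -3.97 to 7.30. Ndufs1, Ndufs3 and Ndufs8 had differences of 2.14, 1.1 and 0.42 and Ndufv1 of -0.44, each with an interval that held 0. Ndufb6, an accessory subunit, was not tested. It was well above background on no re-isolated array and on 2 of 3 satellite arrays, at 1.47 on satellite 1 and -4.39 on satellite 3. For a fold, each re-isolated array was set to its lowest signal well above background, or to the probe's own if higher. The mean was then 8.07-fold lower in both lines together than in satellite cells. Satellite 2, at -6.27 and not well above background, entered the satellite mean as read, so 8.07 is not a strict bound.

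Complex II is also an enzyme of the citric acid cycle, and its 4 genes are all nuclear. Sdhd, Sdhb and Sdha had differences of 2.65, 1.44 and 0.50 in both lines together and Sdhc of -0.59, with adjusted p between 0.406 and 0.836. The 2 probes of Sdha, the flavoprotein subunit, gave 0.50 and 0.57. Sdhb, the iron-sulphur subunit, was the member whose lines differed most downwards. It had levels of 1.72, 1.64 and 1.49 on the iPax3 arrays, -4.60, -2.89 and 0.83 on the iPax7 arrays and 0.84, -2.51 and -3.57 on the satellite arrays. The iPax3 arrays lay above all others, and the iPax3 difference from satellite cells was 3.36 (adjusted p = 0.402).

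Of complex III, 6 of 7 genes were tested, and 2 were higher and 4 lower in re-isolated cells, with a median of -0.72. Uqcrc2, a core protein of the matrix side, had levels of 1.31, 1.06 and 1.88 on the iPax3 arrays, 1.89, 0.04 and 0.87 on the iPax7 arrays and 2.34, 2.46 and 4.66 on the satellite arrays. The groups did not overlap. The difference was -1.97 ± 0.74 (adjusted p = 0.261). Its partner Uqcrc1 had a difference of -0.97, and its groups overlapped. Uqcrfs1, the Rieske iron-sulphur protein, was well above background on 1 of 9 arrays, an iPax3 array, and was not tested.

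Complex IV carries most of the subunits with tissue isoforms, in which skeletal and heart muscle use Cox6a2, Cox7a1 and Cox8b in place of Cox6a1, Cox7a2 and Cox8a, and lung uses Cox4i2 beside Cox4i1. All 8 genes stood well above background on every one of the 9 arrays. Of the 17 tested genes counted in the complex, 8 were higher, Emc8 among them, and 9 lower in re-isolated cells. Cox8a had levels of 0.86, 1.33 and 2.37 on the iPax3 arrays, 1.76, 0.19 and 1.46 on the iPax7 arrays and 2.51, 3.50 and 2.39 on the satellite arrays. The groups did not overlap, with a gap only in the second decimal. The difference was -1.47 ± 0.66 (adjusted p = 0.327). Its muscle isoform Cox8b lay between -4.18 and -2.24 on all arrays, with a difference of -0.12 and an interval from -1.59 to 1.35.

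The log ratio of each isoform pair was compared between the 6 re-isolated and the 3 satellite arrays with a two-sided exact permutation test. It can give no p below 0.0119 over its 84 arrangements. In this exact test the difference in the ratio of muscle to common isoform was -1.20 for Cox6a2 over Cox6a1 (p = 0.56), -1.5 for Cox7a1 over Cox7a2 (p = 0.464) and 1.35 for Cox8b over Cox8a (p = 0.167). For Cox4i2 over Cox4i1 it was 1.47 (p = 0.31), and the adjusted p was 0.56 for all 4 pairs by this exact test. The ratio of Cox6a2 to Cox6a1 ran from -3.08 to 4.44 over the re-isolated arrays and from 0.27 to 4.85 over the satellite arrays, so the groups overlapped. Its sign turned to 0.27 without satellite replicate 2, and by line it was 0.65 for iPax3 and -3.05 for iPax7. The other pairs kept their sign but moved in size when an array was left out. Cox7a1 over Cox7a2 ran from -3.63 without satellite replicate 3 to -0.17 without satellite replicate 2, and was -2.75 in iPax3 and -0.25 in iPax7 cells. Cox8b over Cox8a ran from 0.79 without satellite replicate 2 to 1.95 without satellite replicate 1, and was 1.37 and 1.34 in the lines. Cox4i2 over Cox4i1 ran from 0.99 without satellite replicate 1 to 2.30 without satellite replicate 3, and was 0.18 and 2.75. Ndufa4l2, an isoform of Ndufa4, was not analysed here.

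**Figure D2:**
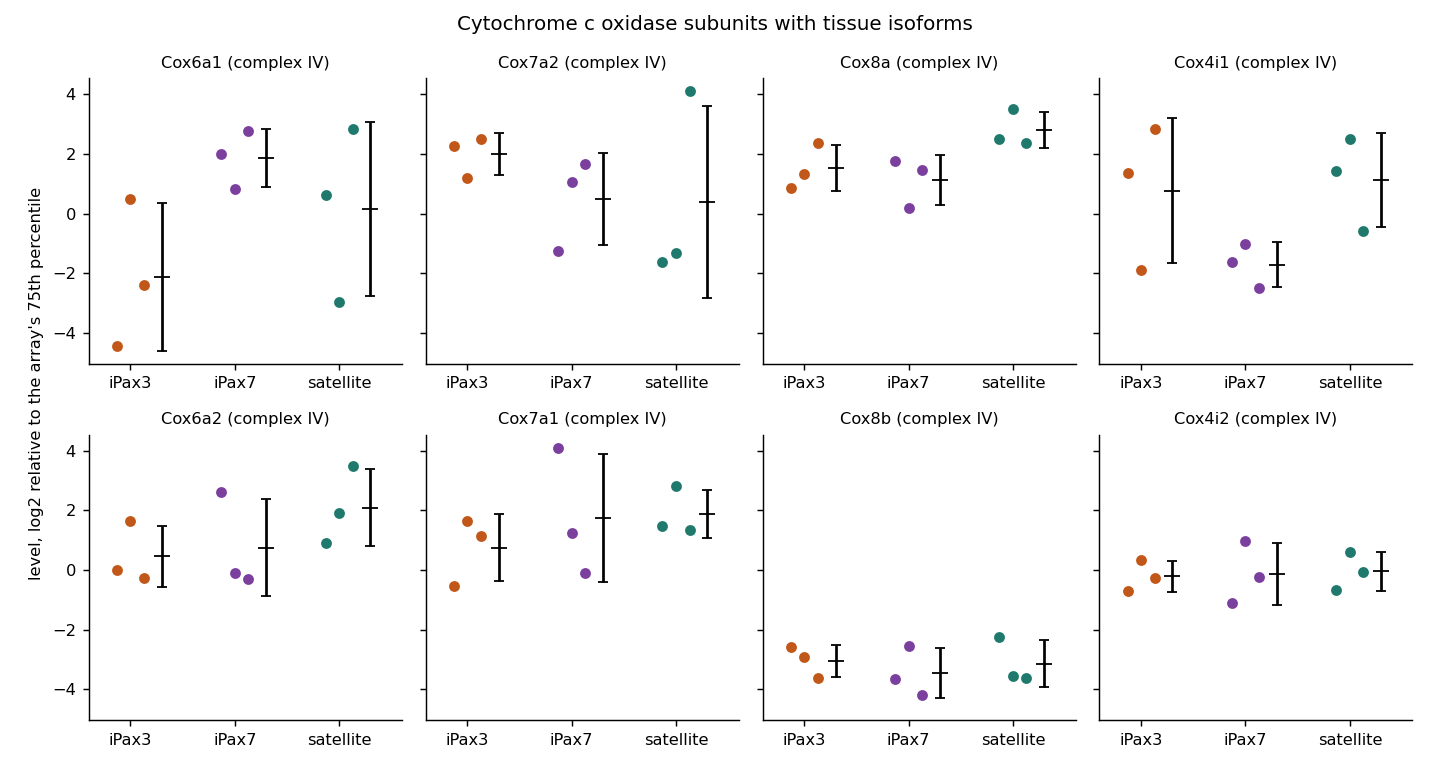
Levels of 8 cytochrome c oxidase subunits (log2 relative to each array's 75th percentile), the common isoforms above and the muscle isoforms and Cox4i2 below, with 3 arrays per group as points and mean and SD beside them. Cox8a is the only one of the 8 in which re-isolated and satellite arrays do not overlap; levels of different genes are not comparable.

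Cox7b, a small accessory subunit, had the largest difference of complex IV. Its levels were 2.32, 2.47 and 1.53 on the iPax3 arrays, 3.49, 0.64 and 3.00 on the iPax7 arrays and 1.07, -6.29 and 0.59 on the satellite arrays. The satellite 2 array was not well above background, and the lowest iPax7 array lay among the satellite values. The difference was 3.79 ± 1.54 (adjusted p = 0.298). Cox5a and Cox5b, which lie on the matrix side, had differences of 0.36 and -1.29. Cox6c lay between 1.64 and 3.67 over all 9 arrays, with a difference of 0.25 and an interval from -1.25 to 1.75. Cox8c, a testis isoform, was well above background on 1 array and was not tested.

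In complex V, 7 of 16 genes were higher, Dmac2l among them, and 9 lower in re-isolated cells, with a median of -0.43. Atp5l had levels of 1.59, 1.5 and 1.73 on the iPax3 arrays, 4.69, 1.60 and 2.22 on the iPax7 arrays and 0.35, -3.19 and 1.25 on the satellite arrays. The groups did not overlap. The difference was 2.75 ± 1.07 (adjusted p = 0.275). Atp5h, a subunit of the peripheral stalk, had a difference of 3.37 ± 1.51 (adjusted p = 0.329). It lay between 2.79 and 6.60 in re-isolated samples and at 2.84, 4.41 and -3.20 on the satellite arrays, so that satellite 3 stood alone below the rest. An overlapping Atp5h probe read satellite 3 at 0.39, again the lowest array, and gave a smaller difference of 1.63.

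The 3 genes for the identical mature subunit c, which differ in their mitochondrial import sequence, gave 3 different pictures. Atp5g2 had levels of 1.98, 1.08 and 2.09 on the iPax3 arrays, 3.30, -0.04 and 2.43 on the iPax7 arrays and 3.16, 5.64 and 7.10 on the satellite arrays. The iPax7 1 array lay just above the lowest satellite array. The difference was -3.49 ± 1.02, or 11.3-fold lower, with an adjusted p of 0.168. Atp5g1 had levels of -1.24, -0.95 and -2.0 on the iPax3 arrays, 2.33, -1.21 and 0.25 on the iPax7 arrays and 1.81, 1.04 and 2.46 on the satellite arrays. The iPax3 arrays lay below all satellite arrays and the iPax7 arrays did not, with an overall difference of -2.24 ± 0.82 (adjusted p = 0.252). Atp5g3 was well above background on 3 of 6 re-isolated arrays and on no satellite array. With dim values on both sides its fitted difference is not exact, and no bound is given. It ranged from -0.11 to 2.08 over 18 alternative analyses.

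The catalytic subunits of ATP synthase were measured with unequal precision. Atp5b, the catalytic beta subunit, had levels of 1.53 to 3.54 over the 9 arrays and a difference of 0.06, with an interval from -1.28 to 1.40. Atp5a1, the alpha subunit beside it, lay at 2.55, -6.16 and 4.25 on the satellite arrays, the widest spread of any tested member there. Satellite 2 was not well above background for this probe, so the Atp5a1 difference of 2.20, with an interval from -2.24 to 6.63, is not exact. The other Atp5a1 probe was well above background on all 9 arrays. It read the satellite arrays at 0.19, 2.46 and 2.64 and gave a difference of -1.24. Atp5c1, Atp5d and Atp5e of the central stalk and Atp5o, which ties the catalytic head to the outer stalk, had differences of -1.1, -0.94, -1.98 and -2.84, each with an interval that held 0.

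In all, 6 members had re-isolated and satellite arrays that did not overlap: Ndufb9 and Atp5l higher, and Ndufs6, Ndufb5, Uqcrc2 and Cox8a lower. They were named after their values were seen. Together they made 7.5% of the 80, where 8.5% of all genes did not overlap, 4.14% higher and 4.36% lower. In iPax3 cells alone 4 members were higher and 9 lower without overlap (16.2%, against 19% of all genes, 8.6% higher and 10.4% lower). In iPax7 cells 7 were higher and 7 lower (17.5%, against 16.5%, 7.63% higher and 8.89% lower). For both lines against satellite cells, none of the 6 passed the adjusted threshold in any of the 20 alternative analyses. All 6 kept their direction there, but they were picked for not overlapping. Leaving out an array cannot turn the direction of such a gene, so the kept direction is no separate support.

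**Figure D3:**
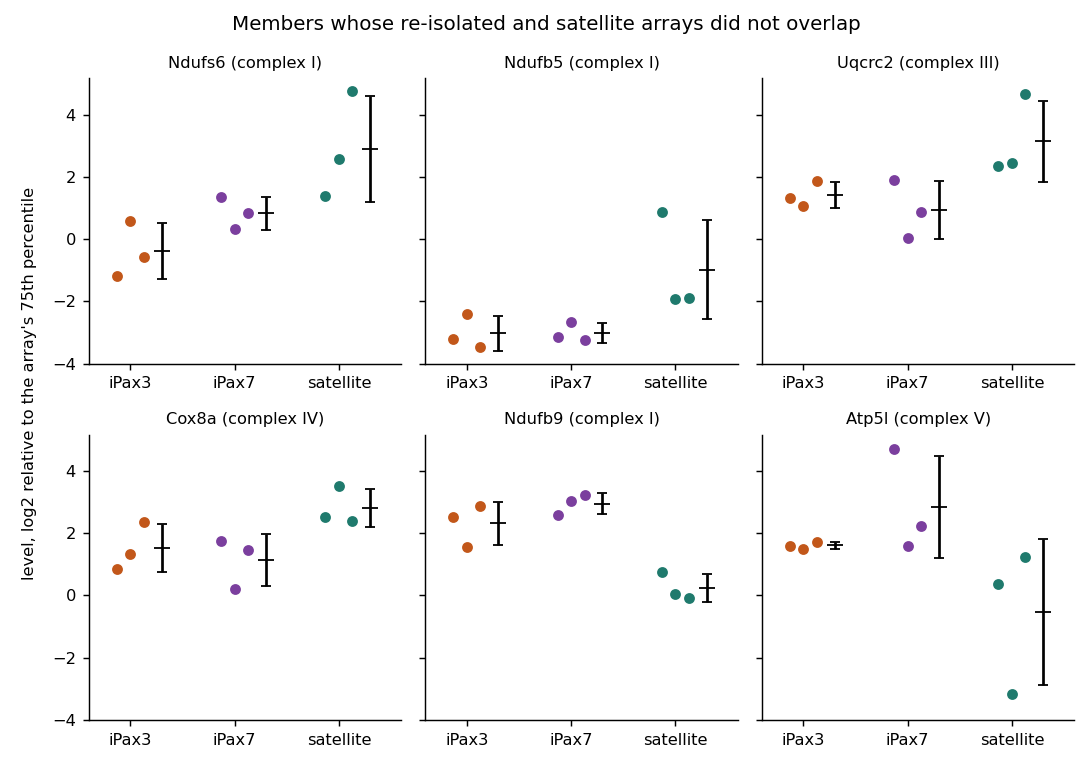
Levels of the 6 members whose 6 re-isolated arrays (iPax3 and iPax7) and 3 satellite arrays did not overlap, on the log2 scale relative to each array's 75th percentile, with mean and SD per group beside the points. Ndufb9 and Atp5l are higher and the other 4 lower in re-isolated cells; 8.5% of all genes separate in this way.

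Probes to the same gene bear on how far a gene's value can be read, although probes that overlap share sequence and all share the RNA sample. Of 26 members with several probes, 22 had at least 2 past the background filter. In 14 of these all probes gave the same sign for both lines against satellite cells, and in 8 the signs differed. The 3 probes of Ndufs6 gave -1.90, -2.69 and -5.61 in the order printed above, and probes 1 and 2 lie 6 bases apart. Probe 3 overlaps both of them, so the 3 are not separate readings of the gene. The 3 probes of Ndufa12 gave 3.58, 1.23 and 4.70, and probe 3 lies in another part of the gene than the overlapping pair. The gene value of Ndufa12 used the probe with 1.23.

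Elsewhere the probes parted. The printed Atp5g2 probes gave -3.49 and 0.50, so the difference of Atp5g2 rests on the first of them. For Ndufab1, probes 1, 2 and 4 gave 1.08, -1.91 and 4.79, and probes 1 and 2 were each well above background on 3 of 9 arrays. The other 6 with differing signs were Atp5a1 (-1.24 and 2.20), Atp5b (from -1.73 to 0.06), Emc8, Ndufa1 (-1.82 and 1.70), Ndufa7 (-0.86 and 0.95) and Uqcrq. Emc8 gave -1.74 and 1.46 and Uqcrq gave -0.77 and 0.76.

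**Figure D4:**
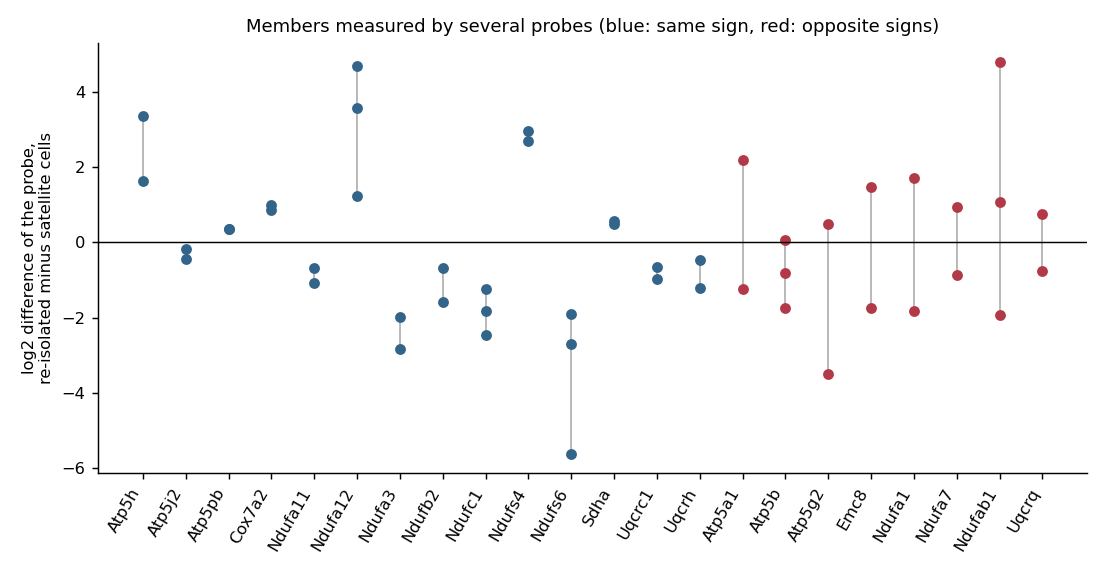
Log2 difference between re-isolated and satellite cells for every probe past the background filter, for the 22 members with at least 2 such probes. All probes of a gene lie on 1 side of 0 in 14 members (blue) and on both sides in 8 (red). Ndufs6 and Ndufa12 show 3 probes each on the same side, where all 3 of Ndufs6 and 2 of Ndufa12 overlap.

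The lines differed from each other in no member by the test. The 5 largest differences between iPax7 and iPax3 cells were 5.0 for Ndufs4, 3.98 for Cox6a1, -3.84 for Sdhb, 3.64 for Ndufb11 and -3.13 for Ndufa1, and the adjusted p was 1 for each. Some of these rest on probes not well above background, whose fitted differences are not exact: Ndufs4 was above it on 2 of 3 iPax3 arrays and on 1 satellite array, Ndufb11 on 1 iPax3 array, and Sdhb and Ndufa1 each on 2 iPax7 arrays. Ndufs4, a subunit late to join complex I, had levels of -7.27, -0.28 and -4.32 in iPax3 cells and 1.45 and 0.65 on the iPax7 arrays 2 and 3, and the iPax7 1 array had no value because its spot was marked as an outlier. In satellite cells it lay at -0.35, -6.20 and -6.69, and the iPax7 difference from them was 5.46 (adjusted p = 0.398). The other Ndufs4 probe past the filter went the opposite way between the lines, with means of -3.93 in iPax3 and -5.33 in iPax7 cells. That probe was well above background on 2 iPax3 arrays, 1 iPax7 array and no satellite array. Cox6a1 had levels of -4.44, 0.50 and -2.39 in iPax3 cells and 2.0, 0.82 and 2.78 in iPax7 cells, with no overlap. In this comparison 5 members were higher and 2 lower in iPax7 cells without overlap, 8.75% against 9.35% of all genes (4.46% higher and 4.89% lower). Endothelial markers were higher in iPax7 than in iPax3 cells in 8 of 8 genes, with 0 called and summed levels of 5.37 to 7.49 against 3.87 to 5.02, and the erythroid genes Hba-a1 and Alas2 differed by 3.91 and 0.19 (adjusted p = 1 for each). Their part in the line differences was not tested.

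The iPax3 arrays and iPax7 replicate 1 shared a slide and the other 2 iPax7 arrays lay on another, so the lines were also compared within the shared slide, in an analysis chosen after seeing the slides. There, with 1 iPax7 array only, the differences were 4.11 for Cox6a1, -6.22 for Sdhb, 5.57 for Ndufb11 and -6.12 for Ndufa1. Ndufs4 has no value there. That array, iPax7 1, had the smallest share of all probes above background (56.5%). It gave the lowest reading of any array for Sdhb (-4.60) and Ndufa1 (-4.93), each above background on 2 of 3 iPax7 arrays. Ndufb11 was above background on 1 iPax3 array, so these 3 differences are not exact. With slide as a random block over all 9 arrays, the differences of the same 4 genes were 4.04, -5.04, 4.61 and -4.63, with adjusted p between 0.6 and 0.625.

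The members varied more between satellite arrays than between re-isolated ones, as did all genes. The iPax3 arrays shared a slide, the iPax7 arrays lay on slides 1 and 2, and each satellite array had its own slide. A group's spread therefore cannot be told apart from its slides. The median over members of the SD within a group was 1.0 for the iPax3, 1.26 for the iPax7 and 1.41 for the satellite arrays, where the medians of all genes were 0.88, 1.03 and 1.26. In satellite cells 15 of 80 members (18.8%) ranged over more than 6 log2 units, against 10.6% of all genes. The corresponding numbers were 5 (6.25%, against 5.22%) in iPax3 cells and 7 (8.75%, against 7.46%) in iPax7 cells. Many of the wide satellite ranges run down to a reading not well above background and are not exact. Atp5a1, Cox7a2l, Cox7b, Cox7c, Ndufab1, Ndufs4 and Ndufv2 are examples, while Atp5e and Atp5h were above background on all 3 satellite arrays. All 3 arrays of a group were above background for 62 of the 80 members in satellite, 70 in iPax3 and 68 in iPax7 cells. The median level of the 80 members on each array was -0.05, 0.27 and 0.92 on the iPax3 arrays, -0.29, 0.52 and 0.85 on the iPax7 arrays and 0.85, -0.55 and 0.65 on the satellite arrays. The lowest of these were satellite 2 and iPax7 1, which also had the fewest members well above background, 63 and 68 of 80, and the smallest shares of all probes above background, 56.7% and 56.5%. On the other arrays 72 to 79 members were above background.

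**Figure D5:**
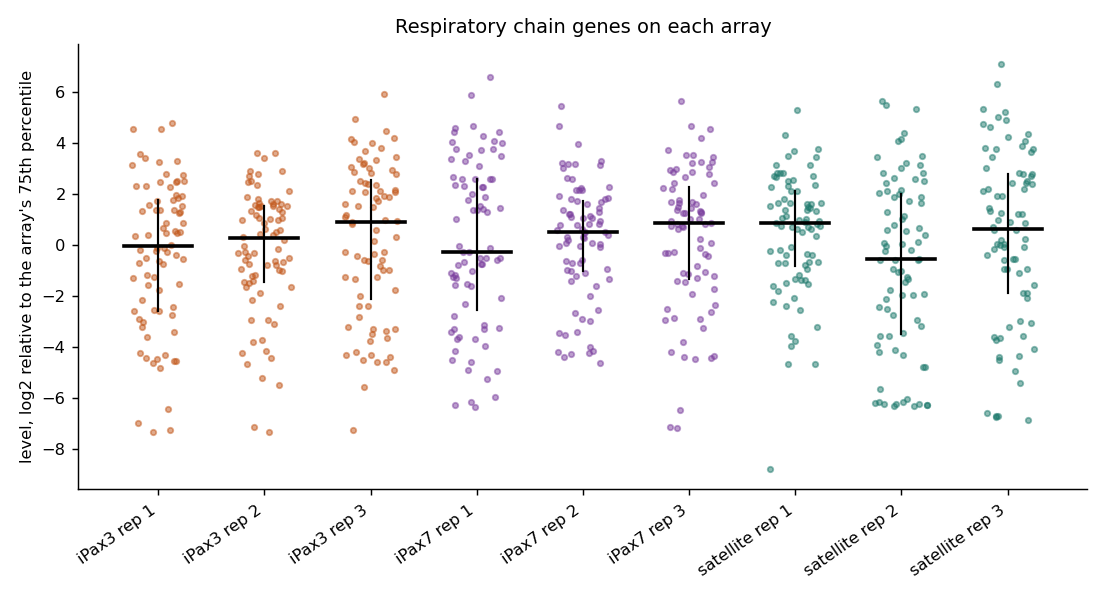
Level of each of the 80 tested members on each of the 9 arrays (log2 relative to the array's 75th percentile), with the median as a thick bar and the quartiles as a thin line. Medians run from -0.55 on satellite 2 to 0.92 on iPax3 3 with no order by group, and the points near -6 on satellite 2 and 3 are probes not well above background.

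Genes that feed, assemble and regulate the chain were read in the same fit, for both lines against satellite cells. Of 16 citric acid cycle and pyruvate dehydrogenase genes, 12 were higher and 4 lower, with a median of 1.25 and 0 called. Dld, the shared lipoamide dehydrogenase, had a difference of 4.21 (adjusted p = 0.235) and was well above background on 1 satellite array, and Pdha1 had 3.29. At an unadjusted p under 0.05 were 3 of them, 18.8%, near the 15.4% of all genes. Of 33 electron carrier and assembly genes tested, 14 were higher and 19 lower, with a median of -0.16 and 0 called. Glycolysis genes had 6 of 18 higher, with a median of -0.46 and 0 called.

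Of 16 regulators of mitochondrial genes, 6 were higher and 10 lower, with a median of -0.95 and 0 called. Ppargc1b, a coactivator of oxidative metabolism, had a level of -3.56 on all 3 iPax3 arrays, of -3.73, -4.21 and -3.97 in iPax7 cells and -2.04, -0.14 and -0.63 on the satellite arrays. The groups did not overlap, and the difference was -2.83 ± 0.60 (adjusted p = 0.0721). Its relative Ppargc1a had a difference of -1.73 and Tfam, which packages and transcribes mitochondrial DNA, -1.28. Of the factors whose motif letters were counted above, Gabpa had a difference of 1.52, Nrf1 of -1.18 and Yy1 of 0.84, with adjusted p between 0.448 and 0.747.

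Ribosomal genes served as a scale for the chain, since the mitochondrial ribosome makes the chain's remaining subunits. Of 77 mitochondrial ribosomal protein genes tested, 34 were higher and 43 lower, with a median of -0.10. Of these, 1 was called (1.3%, near the 1.04% of all genes): Mrps7, with a difference of 3.86 ± 0.66 for both lines together (adjusted p = 0.0334). The call held in 8 of 20 alternative analyses. It was lost with slide or scan day as a random block (adjusted p = 0.214 and 0.198), with the mean of the gene's probes (a difference of 1.58, adjusted p = 0.415), with the replicate block (0.0748) and without any single array other than satellite 1 (0.0607 to 0.14). Of 79 cytosolic ribosomal protein genes, 14 were higher and 65 lower, with a median of -0.78 and 0 called. The median of the chain genes in the same fit was -0.14 and that of all genes -0.16.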

How the data were processed

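RNA of 9 samples was read on Agilent arrays of 45018 spots, 1639 of them controls. Agilent Feature Extraction 10.5.1.1 wrote the deposited intensity of each spot, detrended and with background subtracted, per the file headers. The authors also deposited log2 values for 31918 spots. Limma is the tool named in the submitters' processing notes, and its version and steps there are not given in the sources used here, so these values served as an alternative. Processed signals were taken as log2 minus each array's 75th percentile, leaving out 60 to 342 outlier spots per array. A probe was kept when above background by the scanner's flag (13 background standard deviations, per the file headers) on at least 3 arrays; 32978 of 41174 were. Each gene took 1 probe, the one with the highest mean over all 9 arrays. Names came from RefSeq (GRCm38.p6) by accession for 24375 probes and by symbol or synonym for 6301 and 2426; 8072 kept the file's name.

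Differences were fitted over all 22701 genes with limma 3.58.1 in R 4.3.3 (lmFit, eBayes, 1 mean per group), with Benjamini-Hochberg adjustment. The fit was tested on simulated arrays drawn independently of each other, so that test does not cover arrays that share a slide. Groups came from the sample titles. The p-values treat the arrays as independent, as the labels' 3 experiments imply, and their number limits the precision. However, arrays that shared a slide had an estimated correlation of 0.431 over all genes, and those that shared a scan day 0.195. The main p-values do not allow for this. Fits with slide or scan day as a random block are given below. The members and lists were chosen with earlier results of these data known. Named were the members with the 5 largest differences per comparison, isoform and core subunits, extremes of level or spread in each complex, and members with disagreeing probes; of these the text describes those its results turn on. Ndufb9, Atp5l, Ndufs6 and Ndufb5 were added because their groups did not overlap. Same-numbered arrays did not deviate together (correlations from -0.129 to 0.0624), so replicate numbers were not taken as pairs. Of the tested members, 1 enters the counts and is not reported here by name.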

Additional observations from a re-analysis of the deposited data

How the results depend on the processing

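The count of 0 members called held under each of 11 other settings for every comparison of a line with satellite cells, and under all 12 for the lines against each other: other normalisations, the deposited values, other filters and probe rules, a trended fit, and slide, scan day or replicate as a block, with the shared slide alone for the lines. It held when each array was left out in turn (range 0 to 1), except without satellite replicate 1, where Ndufab1 alone was called in each comparison with satellite cells, against 2 satellite arrays on which it was not well above background. The member median ranged from -0.37 to -0.05 (iPax3), -0.15 to 0.30 (iPax7), -0.44 to 0.04 (both) and 0.06 to 0.21 (between lines) over those settings. Leaving out arrays gave -0.44 to -0.04, -0.32 to 0.21, -0.35 to 0.05 and 0.14 to 0.25, so its sign is not settled in iPax7 cells or both lines together.

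The count over all genes depended far more on the setting, and the cause was not tested. It was 98 for iPax3, 121 for iPax7 and 236 for both lines. The deposited values gave 181 for iPax3 and 189 for iPax7, probes above background on all arrays gave 76 for iPax7, slide as a random block gave 14, 43 and 47, and scan day 27, 36 and 43. The replicate block, fitted although the numbers do not pair the samples, gave 37, 55 and 115 genes and 0 members. Leaving out an array gave 19 to 452, 35 to 490 and 75 to 692, each highest without satellite replicate 1 and lowest without iPax3 replicate 3, iPax7 replicate 1 and satellite replicate 2. Between the lines, quantile normalisation, the mean of a gene's probes and the slide block each gave 1 gene instead of 0. The isoform ratio of Cox6a2 over Cox6a1 turned from -1.20 to 0.65 with iPax3 alone, and ranged from -2.03 to 0.27 when arrays were left out, positive only without satellite replicate 2. Of 55 named members, 26 changed sign under at least 1 setting for both lines against satellite cells.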
